A study of Homo sapiens with 2 samples.

Results

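TBXT, EOMES, TBX6, MIXL1, MESP1 and MESP2 are transcription factor genes of the primitive streak and of the mesoderm that leaves it. They were taken by symbol from the gene table of the series, which lists 33538 genes, and all 6 were found once in both libraries. Each library held single cells of the established human embryonic stem cell (hESC) line H1 after 48 h in mTeSR1 medium with BMP4 at 50 ng/ml. The library labelled WT came from unmodified H1. The library labelled GATA3 KO came from 1 clone, KO-GATA3-06, picked after GATA3 had been targeted with guide RNAs in an H1 line that carries a doxycycline-inducible SpCas9 cassette at AAVS1. Clone, cassette and genotype therefore differ together between the libraries. For WT, a protocol text names 1 h of exposure, whereas its title and recorded duration name 48 h. There was 1 library per group and hence no replicate, so no test was made. All intervals given are 95% intervals that cover counting error only.

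The primitive streak is the part of the early embryo through which epiblast cells pass to become mesoderm and endoderm. BMP, WNT and NODAL signals induce it. TBXT (brachyury) and EOMES are T-box factors that are among the first to appear there, and MIXL1 is a paired-type homeobox factor of the same cells. MESP1 and MESP2 are neighbouring genes for basic helix-loop-helix factors. MESP1 marks the earliest mesoderm, including heart progenitors, and MESP2 sets segment borders in presomitic mesoderm. TBX6 is a T-box factor of presomitic mesoderm, where it promotes mesodermal over neural fate.

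The upstream sequences of the members are shown because all 6 genes were lower in the same library. RefSeq gave windows of 250 bases before to 50 bases after a start site (GRCh38.p14) for 5 of the 6 genes, with 2 start sites for TBXT, and none was at hand for MESP1. Capitals mark matches on either strand to the letters of 5 motifs. The letters AATCCA stand for FOXH1, a partner of the SMADs that NODAL activates, and CAGAC for the SMADs themselves. For LEF/TCF, the factors of WNT signalling, the letters CTTTGA were searched. T-box factors were represented by the letters AGGTGT. For GATA factors the search used the letters AGATAA. The sequences run 5′ to 3′ on the strand of the gene. MIXL1, EOMES, the inner TBXT start and MESP2 are printed, since these windows hold the matches described next.
MIXL1 (chr1:226223414-226223713, plus strand): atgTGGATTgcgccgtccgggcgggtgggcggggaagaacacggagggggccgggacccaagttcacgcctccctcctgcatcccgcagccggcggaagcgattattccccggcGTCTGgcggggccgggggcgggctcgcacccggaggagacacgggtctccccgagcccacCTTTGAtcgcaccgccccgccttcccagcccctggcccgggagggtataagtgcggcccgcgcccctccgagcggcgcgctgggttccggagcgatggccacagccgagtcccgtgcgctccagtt
EOMES (chr3:27722274-27722573, minus strand): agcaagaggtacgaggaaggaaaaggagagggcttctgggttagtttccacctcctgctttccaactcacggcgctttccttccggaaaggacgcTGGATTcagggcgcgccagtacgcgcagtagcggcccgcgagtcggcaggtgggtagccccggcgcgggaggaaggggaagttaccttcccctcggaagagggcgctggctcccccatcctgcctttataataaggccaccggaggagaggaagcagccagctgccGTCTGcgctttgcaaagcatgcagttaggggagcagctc
TBXT (chr6:166167802-166168101, minus strand): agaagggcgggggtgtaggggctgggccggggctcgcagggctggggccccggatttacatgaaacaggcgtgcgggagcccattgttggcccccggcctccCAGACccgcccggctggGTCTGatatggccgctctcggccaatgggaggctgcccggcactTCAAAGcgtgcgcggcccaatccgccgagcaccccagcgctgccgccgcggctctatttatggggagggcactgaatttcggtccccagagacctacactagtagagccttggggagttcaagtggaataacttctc
MESP2 (chr15:89776082-89776381, plus strand): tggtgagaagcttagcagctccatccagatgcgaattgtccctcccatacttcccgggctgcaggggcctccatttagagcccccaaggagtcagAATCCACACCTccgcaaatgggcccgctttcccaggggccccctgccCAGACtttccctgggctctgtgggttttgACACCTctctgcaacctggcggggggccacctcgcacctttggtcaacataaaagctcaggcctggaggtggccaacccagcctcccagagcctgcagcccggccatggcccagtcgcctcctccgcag
In these windows FOXH1 letters lie 247 bases before the MIXL1 start, 155 before that of EOMES and 155 before that of MESP2. LEF/TCF letters lie 76 bases before the MIXL1 start and 87 before the inner TBXT start. Both matches to the T-box letters are upstream of MESP2, 150 and 79 bases before its start, and the first of them shares a base with the FOXH1 letters. No GATA letters were found in any of the 6 windows. Of all 35116 windows of this length in the table, 10.5% hold the FOXH1 letters, 12.9% the LEF/TCF letters, 11.4% the T-box letters, 10.3% the GATA letters and 45.3% the SMAD letters. A match describes the sequence and does not show that a factor binds there.

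The library labelled WT held 3802 cells and the library labelled GATA3 KO 6221 cells. Cells of at most 7500 detected genes and at most 25% mitochondrial counts were kept, which left 2519 and 4450 cells with 99587274 and 175285931 unique molecular identifiers (UMIs, each standing for 1 captured transcript). All 6 hESC markers checked were present in both, among them POU5F1 at 918 and 1480 UMIs per 1000000 (CPM). GATA3, which was targeted, stood at 12.7 CPM labelled WT and 10.9 CPM labelled GATA3 KO. Counts taken at the 3′ end can hold transcript of a disrupted gene, so these values do not check the labels, on which all directions rest. The libraries shared 8 cell barcodes.

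All 6 transcripts had lower levels in GATA3 KO than in WT, and 5 of them by at least 2-fold. The share of all genes of at least 1 CPM that were at least 2-fold lower was 4.24%. With a pseudocount of 1 CPM the number of members fell to 4, since MESP2 then stood at a log2 ratio of -0.63. The median log2 ratio of the 6 was -3.76, against 0.08 over all 13523 such genes. MESP1, MESP2 and TBX6 reached 1 CPM only in the library labelled WT, so they could not be called higher labelled GATA3 KO. The members were also chosen with earlier results of these data known. The count of 5 therefore describes these genes and tests nothing. The members differed widely among themselves, as the plot of levels by library shows. MIXL1 (ENSG00000185155, chromosome 1, 226223618 to 226227060) was the most abundant in the library labelled WT, with 13523 UMIs or 135.8 CPM (133.5 to 138.1), against 701 UMIs or 4.0 CPM (3.71 to 4.31). EOMES (ENSG00000163508, chromosome 3, 27715949 to 27722711) had 6781 UMIs labelled WT and 1110 labelled GATA3 KO, 68.1 and 6.33 CPM, a log2 ratio of -3.43 (-3.52 to -3.33). For TBXT (ENSG00000164458, chromosome 6, 166157656 to 166168700) these were 2254 and 232 UMIs, 22.6 and 1.32 CPM, a log2 ratio of -4.10 (-4.30 to -3.90).

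Of the MESP pair, MESP1 (ENSG00000166823, chromosome 15, 89749875 to 89751249) was the member with the lowest ratio, with 1615 UMIs in WT, 58 in GATA3 KO and a log2 ratio of -5.62 (-6.02 to -5.24). MESP2 (ENSG00000188095, chromosome 15, 89760591 to 89778754), which by GENCODE coordinates lies 9341 bases from MESP1 and points away from it, had 138 and 95 UMIs. Its levels were 1.39 CPM (1.16 to 1.64) and 0.542 CPM (0.438 to 0.663), with a log2 ratio of -1.35 (-1.75 to -0.97). The RefSeq start window of MESP2 printed above lies inside these coordinates and farther from MESP1, so the 2 annotations place the start differently. TBX6 (ENSG00000149922, chromosome 16, 30085793 to 30091924) was the member that differed least and the one not at least 2-fold lower. It had 135 and 127 UMIs, 1.36 CPM (1.14 to 1.60) and 0.725 CPM (0.604 to 0.862), and its log2 ratio of -0.90 (-1.26 to -0.54) became -0.48 when CPM was averaged over cells. In the annotation 1 antisense gene, LNCDAT, overlaps TBXT. It is not among the counted genes.

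**Figure D1:**
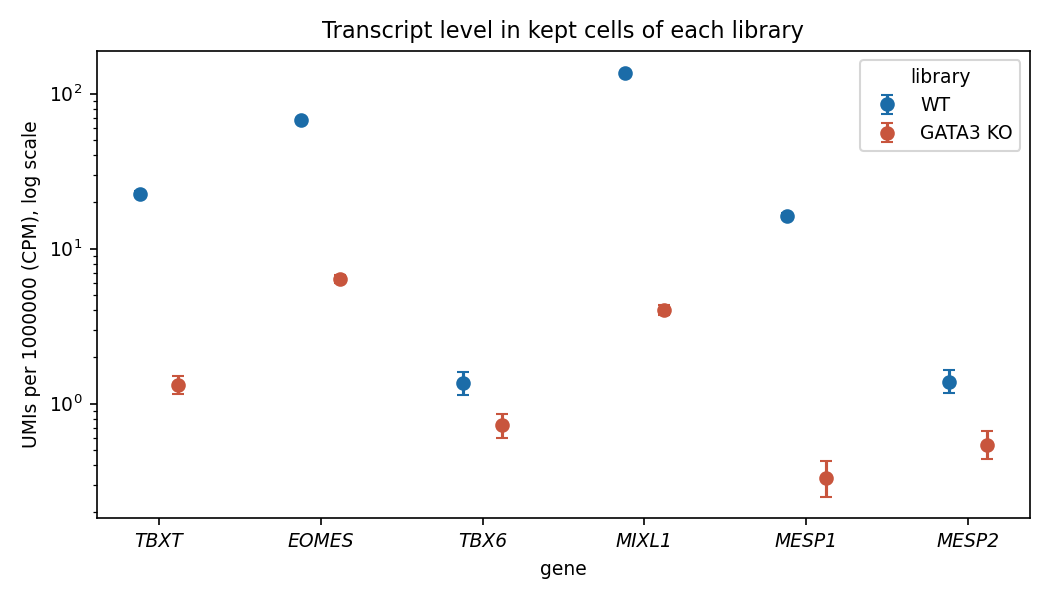
Level of each gene in the kept cells of the library labelled WT (blue) and the library labelled GATA3 KO (red), in UMIs per 1000000 on a log axis, with exact Poisson 95% intervals that cover counting error only. MIXL1 and MESP1 lie farthest apart between the libraries, at 135.8 against 4.0 CPM and 16.2 against 0.331 CPM, and TBX6 lies closest, at 1.36 against 0.725 CPM.

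Genes that act with the members were read from lists, at the same minimum of 1 CPM, with 4.44% of all genes at least 2-fold higher. The limits given for the count of members hold for these counts too. Some genes, such as SP5, CER1 and SOX17, stand in more than 1 list and are counted in each, here and below, so the lists are not independent. Of 12 NODAL, WNT and FGF ligands, 11 reached the minimum, 10 were at least 2-fold lower labelled GATA3 KO and BMP4 was at least 2-fold higher (27.8 CPM labelled WT, 64.8 labelled GATA3 KO). FGF17 was at 15.1 and 0.103 CPM and NODAL at 102.2 and 18.2 CPM. Of 12 inhibitors and feedback genes, 11 reached it, 7 were lower and 1 higher. Of 20 streak and nascent mesoderm genes, 16 reached it and 10 were lower, for example GATA6 (7.78 and 0.131 CPM), and none was higher. Of 11 endoderm and organizer genes 6 reached it and 4 were lower, among them GSC (10.1 and 0.359 CPM). Of 9 segmentation genes 4 reached it and 1 was higher, and of 14 other T-box genes 3 reached it and none was 2-fold apart. Of 6 germ cell genes 2 were lower. Higher were 5 of 11 amnion and trophectoderm genes, 3 of 5 early ectoderm genes and 2 of 10 pluripotency genes past the minimum, with none lower in these 3 lists.

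The genes also differed in how their UMIs were spread over cells. In the library labelled WT the highest count in 1 cell was 123 UMIs for MIXL1, 117 for MESP1, 42 for EOMES, 22 for TBXT, 15 for MESP2 and 10 for TBX6. The 1% of cells with the most UMIs of a gene held 50.1% of all MESP1 UMIs, 48.6% of all MESP2 UMIs and 36.3% of all TBX6 UMIs, against 11.4% for EOMES. This share also runs high for a gene of few UMIs. It was 48.4% for MESP2 labelled GATA3 KO, where no cell had more than 2. MESP1 was thus the most unevenly spread of the abundant members, with a mean of 6.16 UMIs in each of its 262 positive cells. In the library labelled GATA3 KO MIXL1 still reached 43 UMIs in a cell and EOMES 28, whereas MESP1, MESP2 and TBX6 never exceeded 2. The 58 MESP1 UMIs of that library lay in 57 cells, and the 95 MESP2 UMIs in 93 cells.

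Shares of cells with a transcript were compared after each cell had been thinned to 10000 UMIs, which left 2173 cells labelled WT and 4038 labelled GATA3 KO. Free RNA in a droplet can add UMIs to cells that do not make a transcript. The share in cluster 2, the cluster of cells with the highest summed level of 9 early ectoderm genes among those of at least 50 cells per library, was therefore set beside each share. Cluster 2 held 115 and 513 thinned cells, with medians of 55474 and 51656 UMIs before thinning against 47122 and 44830 over all thinned cells.

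At least 1 UMI of any member was found in 47.3% (45.1 to 49.4) of thinned cells labelled WT and 7.70% (6.90 to 8.57) labelled GATA3 KO, a difference of -39.6 percentage points. Cluster 2 stood at 6.09% (2.48 to 12.1) and 3.31% (1.94 to 5.25), and without thinning the 2 libraries stood at 60.9% and 19.1%. MIXL1 led in the library labelled WT with 32.4% (705 of 2173 cells, against 2.61% in cluster 2), followed by EOMES with 29.4% (638 cells) and TBXT with 16.5% (359 cells). Neither EOMES nor TBXT was found in cluster 2 there, where 0 of 115 cells allows a share of up to 2.61%. MESP1 was found in 5.84% (127 cells), also with 0 of 115 in cluster 2. MESP2 at 1.29% (28 cells) was near its 0.870% in cluster 2, and TBX6 at 1.15% (25 cells) was below its 2.61% there, so over all cells neither share stood out from cluster 2. In cluster 3, described with the other clusters, MESP2 was found in 17 of 435 thinned cells (3.91%; 2.29 to 6.18) and TBX6 in 10 (2.30%; 1.11 to 4.19).

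The order was another in the library labelled GATA3 KO. EOMES led with 4.51% (182 of 4038 cells), against 0.390% in cluster 2. MIXL1 followed with 2.15% (87 cells, against 0.975%) and TBXT with 0.916% (37 cells, against 0 of 513 cells, which allows up to 0.585%). TBX6 at 0.693% and MESP2 at 0.594% lay below their shares in cluster 2, 0.780% and 0.975%. MESP1 at 0.272% (0.136 to 0.487) was within the interval of its 0.195% in cluster 2 (0.00494 to 1.08). For these 3 genes no expression beyond that in cluster 2 was detectable over all thinned cells of this library. Over kept cells, cluster 2 had TBX6 at 0.931 CPM, MESP2 at 0.543 and MESP1 at 0.155, against 0.725, 0.542 and 0.331 CPM in the whole library. Whether such UMIs are free RNA or low expression in the cells themselves was not tested. By cluster, MESP1 was highest in cluster 17 (41 cells), at 3.80 CPM (1.23 to 8.87), against 0.155 CPM (0.0423 to 0.397) in cluster 2. This rests on 5 UMIs, and after thinning MESP1 was found in 2 of the 41 cells (4.88%; 0.596 to 16.5).

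Member transcripts were then counted together. In the library labelled WT 702 thinned cells (32.3%; 30.3 to 34.3) held at least 2 UMIs summed over the 6 genes, and 216 (9.94%) held 8 or more. For cells labelled GATA3 KO, 85 cells (2.11%; 1.68 to 2.60) held at least 2 and 4 cells held 8 or more. Exactly 3, 4 and 5 different members were found in 159, 55 and 10 cells labelled WT, and all 6 in 0 of 2173 cells (interval up to 0.170%). Among cells labelled GATA3 KO, 9 cells had exactly 3 members, and 0 of 4038 had exactly 4 (interval up to 0.0913%), 5 or 6. The cell labelled WT with the most member UMIs after thinning had 26 of MESP1, 6 of MIXL1, 5 of EOMES, 3 of MESP2 and 0 of TBXT. Its counterpart labelled GATA3 KO had 7 of MIXL1, 7 of EOMES and 3 of TBXT.

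Pairs of members were found in the same cells more often than the product of their shares gives. Over the 14 pairs labelled WT with at least 1 cell expected, the median ratio of observed to expected cells was 2.13. Cells are not replicates, so these ratios carry counting intervals and no test. The highest ratio a pair can reach is larger for rarer genes, so the ratios do not rank the pairs by how closely they are linked. MIXL1 and EOMES were found together in 432 cells against 207.0 expected, a ratio of 2.09 (1.91 to 2.27). Of the cells with MIXL1, 61.3% also had EOMES, against 14.0% of the cells without MIXL1. TBXT was found with MIXL1 in 252 cells (116.5 expected) and with EOMES in 209 cells (105.4 expected).

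The MESP genes were read in the same way in the library labelled WT. MESP1 and MESP2 shared 13 cells against 1.64 expected, a ratio of 7.94 (4.23 to 13.6), so that 46.4% (27.5 to 66.1) of the cells with MESP2 also had MESP1. Of the 127 cells with MESP1, 101 also had MIXL1 (41.2 expected), 91 had EOMES (37.3 expected) and 55 had TBXT (21.0 expected). MESP1 alone, with no other member, was seen in 23 of its 127 cells (18.1%). Of all 2173 thinned cells, 1169 had 0 UMIs of the 5 members other than MESP1. TBX6 shared 5 cells with MESP1 against 1.46 expected, a ratio of 3.42 (1.11 to 7.97). No other member was found in 10 of the 25 cells with TBX6, against 1156 of all 2173 cells.

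For cells labelled GATA3 KO, co-detection held for EOMES, MIXL1 and TBXT and could not be seen for the rest. EOMES and MIXL1 shared 35 cells against 3.92 expected, a ratio of 8.93 (6.22 to 12.4). TBXT shared 18 cells with EOMES (1.67 expected) and 11 with MIXL1 (0.797 expected). Each gene had a lower share in this library, and the highest ratio a pair can reach is larger where shares are low, so the ratios of the libraries are not compared. All 28 cells with TBX6 had no other member, and neither did 23 of 24 cells with MESP2 and 10 of 11 with MESP1. Of all 4038 thinned cells, 3755, 3750 and 3737 had 0 UMIs of the 5 members other than TBX6, MESP2 and MESP1. The lone cells of these 3 genes were thus near the share over all cells. By contrast 16 of 37 cells with TBXT had no other member, against 3743 of all 4038 cells. The plot of co-detection shows all 15 pairs.

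**Figure D2:**
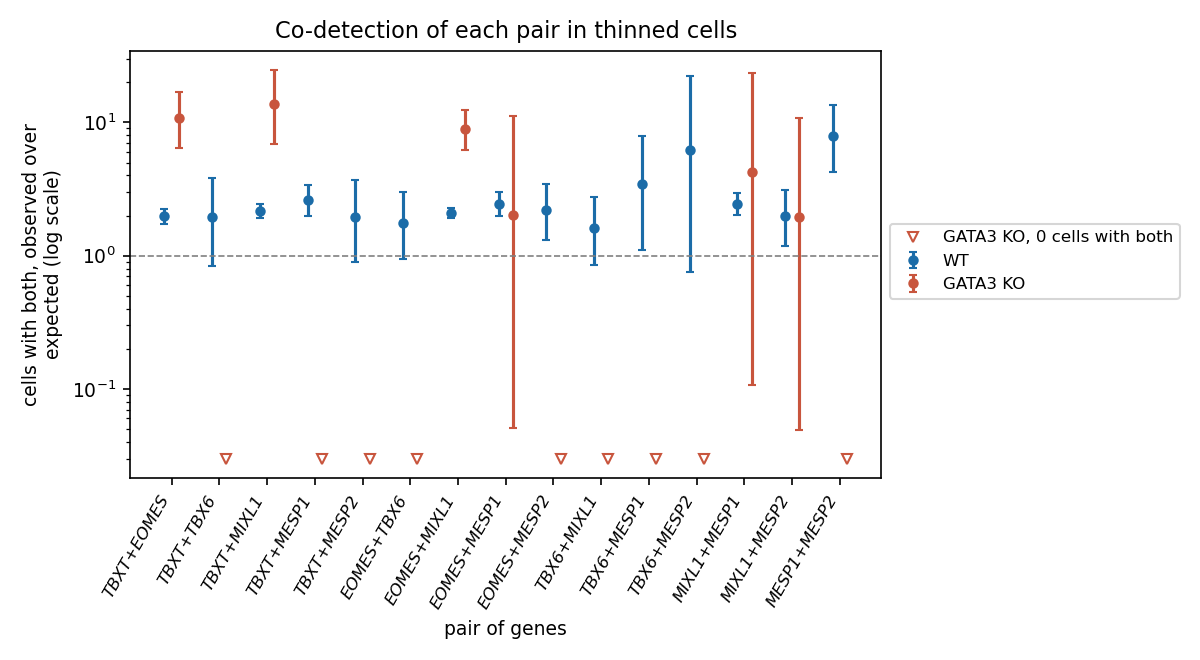
Thinned cells with both genes of a pair over the number expected from the product of the 2 shares, on a log axis, with exact 95% intervals, for the libraries labelled WT (blue) and GATA3 KO (red). The dashed line marks a ratio of 1 and open triangles at the foot mark pairs with 0 cells. All 15 pairs labelled WT lie above 1, though the intervals of TBX6 with TBXT, EOMES, MIXL1 and MESP2 and of TBXT with MESP2 reach below it. MESP1 and MESP2 labelled WT lie at 7.94, and 3 pairs of EOMES, MIXL1 and TBXT labelled GATA3 KO lie between 8.93 and 13.8. Pairs of rarer genes can reach higher ratios, so heights do not rank the pairs.

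An order among the genes was read in 2 ways. The first was over cells of few to many UMIs, without thinning. In cells labelled WT of under 10000 UMIs, MIXL1 was found in 14.5% (50 of 346), EOMES in 7.23%, TBXT in 6.65% and MESP1 in 3.76%. MESP2 was found there in 1 cell and TBX6 in 0 of 346 (interval up to 1.06%). Between 30000 and 50000 UMIs EOMES had passed MIXL1, with 49.0% (45.7 to 52.3) against 43.3% (40.0 to 46.6), and TBXT reached 34.1%. Between 50000 and 70000 UMIs the shares were 59.7% for EOMES, 54.1% for MIXL1, 43.3% for TBXT, 12.6% for MESP1, 6.04% for TBX6 and 5.69% for MESP2.

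After thinning the same 878 deep cells, MIXL1 led again with 36.6% against 32.5% for EOMES. MIXL1 had more UMIs per cell in fewer cells, with 12.7 UMIs in each of its positive cells against 5.93 for EOMES, and was the less widely spread of the pair. Which of the 2 comes first in the library labelled WT thus depends on depth. Among cells labelled GATA3 KO, EOMES came first at every depth from 10000 to 70000 UMIs, for example with 15.8% (13.9 to 17.9) against 8.66% (7.20 to 10.3) for MIXL1 between 50000 and 70000 UMIs.

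The second order was over thinned cells binned by the summed UMIs of the other 5 members, so that a gene does not enter its own bin. Bins of the same label therefore hold different cells for each gene. For cells labelled WT, 8 or more held 47 cells for MIXL1 and 204 for MESP1. For cells labelled WT, the share with MIXL1 was 14.0% where the others had 0 UMIs, 41.2% at 1, 68.3% at 2 to 3, 92.8% at 4 to 7 and 100% (47 of 47 cells) at 8 or more. EOMES went through 13.0%, 31.1%, 49.6%, 69.4% and 89.6%. TBXT went through 5.99%, 16.6%, 25.8%, 37.2% and 49.0%. The 3 genes were thus each found more often from bin to bin.

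MESP1 did not follow this course. Its share was 1.97% (1.25 to 2.94) where the others had 0 UMIs, 1.29% at 1 and 1.15% (0.237 to 3.31) at 2 to 3. It was 8.30% (5.07 to 12.7) at 4 to 7 and 38.2% (31.5 to 45.3) at 8 or more, where its mean was 1.41 UMIs per cell. MESP2 stood at 0.607%, 0.625%, 0.755%, 1.36% and 6.51% over the same bins, and TBX6 at 0.865%, 0.631%, 0.377%, 1.83% and 3.70%. MESP1, MESP2 and TBX6 thus had their highest shares in the cells with the most UMIs of the others. For MESP2 that share had an interval of 3.61 to 10.7. That of TBX6, 3.70% (1.61 to 7.17), lay within the interval of its 2.61% in cluster 2 (0.541 to 7.43), so it did not stand out from cluster 2. The bins give an order over cells collected at 1 time, and not an order in time.

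For cells labelled GATA3 KO, the share with EOMES was 3.55% where the others had 0 UMIs, 15.2% at 1 and 59.5% (43.3 to 74.4; 25 of 42 cells) at 2 or more. The share with MIXL1 was 1.27%, 7.35% and 40.7% (28.1 to 54.3; 24 of 59 cells). The share with TBXT was 0.427%, 4.95% and 13.7% (10 of 73 cells). MESP1 was found in 1 of 85 cells whose others had 2 or more UMIs, or 1.18% (0.0298 to 6.38), against 14.4% (11.9 to 17.2; 100 of 695 cells) in the same bin labelled WT. Only 4 cells labelled GATA3 KO had 8 or more UMIs of the other 5 in that count, so the bin where MESP1 stood highest in the library labelled WT was almost empty there.

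**Figure D3:**
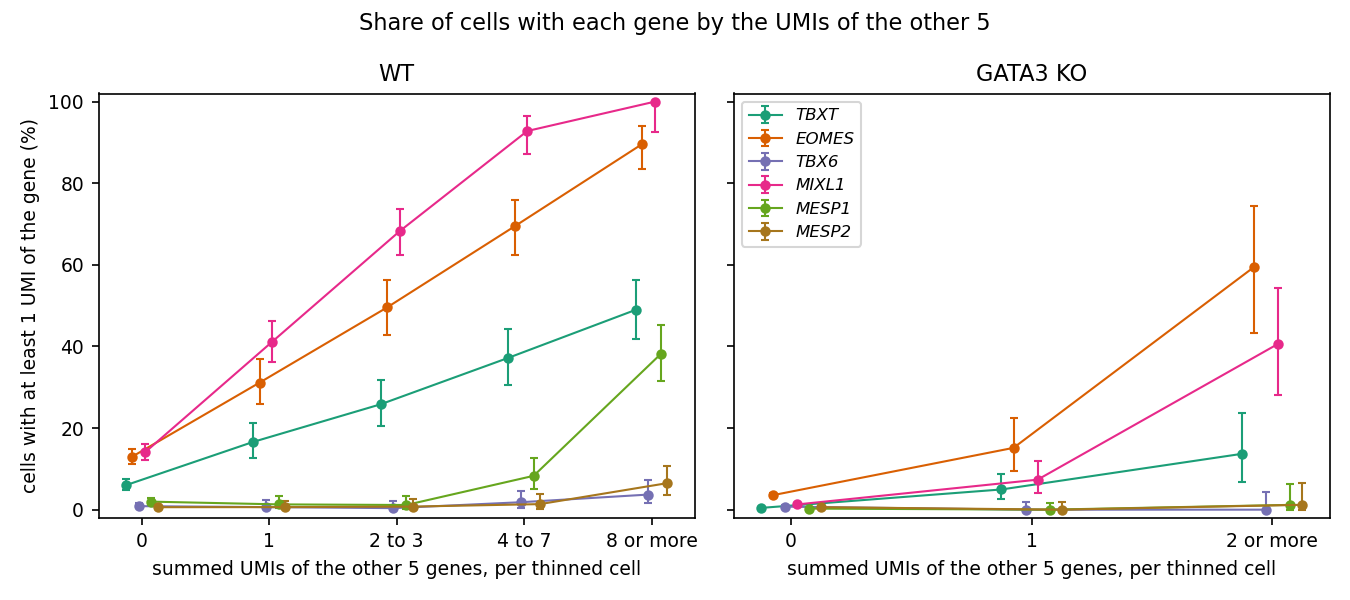
Share of thinned cells with at least 1 UMI of each gene (vertical axis, %) against the summed UMIs of the other 5 genes in the same cell (horizontal axis), labelled WT (left) and GATA3 KO (right, where bins of 2 or more are joined), with Clopper-Pearson 95% intervals. Among cells labelled WT, MIXL1, EOMES and TBXT climb from bin to bin, and MESP1 stays under 2% up to 2 to 3 UMIs before it reaches 38.2%.

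The mix of members differed between the libraries over all kept cells and in cells with few member UMIs. MIXL1 made up 55.3% (54.7 to 55.9) of all member UMIs labelled WT and 30.2% (28.3 to 32.1) labelled GATA3 KO, while EOMES made up 27.7% and 47.8%. To compare like with like, thinned cells with 2 to 3 member UMIs were set side by side, 266 labelled WT and 58 labelled GATA3 KO. EOMES gave 35.3% (31.6 to 39.2) of the member UMIs in the former and 53.7% (44.9 to 62.4) in the latter, and MIXL1 gave 45.6% (41.7 to 49.6) and 29.1% (21.6 to 37.6). At 4 to 7 member UMIs MIXL1 gave 59.7% (56.8 to 62.6) of 1144 UMIs labelled WT and 50.0% of 118 UMIs labelled GATA3 KO (40.7 to 59.3). TBXT gave 16.3% (13.5 to 19.4) and 14.9% (9.36 to 22.1) at 2 to 3 UMIs. At 8 or more, where 4 cells with 47 member UMIs were labelled GATA3 KO, MIXL1 gave 59.6% labelled WT and 61.7% (46.4 to 75.5) labelled GATA3 KO, and EOMES 23.5% and 25.5% (13.9 to 40.3), so no difference was detectable there.

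Levels across cell states were read from 18 clusters drawn without the members and the listed genes. Clusters are called by number. For cells labelled WT, 55.1% of member UMIs lay in cluster 3 (438 cells) and 23.8% in cluster 12 (187 cells). When the libraries were merged without integration, the leading cluster held 31.6%. Cluster 3 had MIXL1 at 385 CPM, EOMES at 162 CPM, MESP1 at 61.4 CPM and TBXT at 48.9 CPM, and held 77.1% of all MESP1 UMIs. Cluster 12 had similar MIXL1 (305 CPM), EOMES (168 CPM) and TBXT (43.5 CPM) but MESP1 at 15.5 CPM. MESP2 and TBX6 were also highest in cluster 3 among clusters of median depth over 10000 UMIs, at 4.24 and 3.01 CPM. Cluster 2 stood at 1.02 CPM of MIXL1, 0.678 of EOMES and 0.508 of TBXT.

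Other clusters labelled WT had another mix. In cluster 6, led by SPP1 and PCAT14 and with GATA3 at 34.8 CPM, TBXT stood at 39.6 CPM, near its level in cluster 3, while MIXL1 was at 63.6 CPM and MESP1 at 3.87 CPM. In cluster 8, led by SPARCL1 and with GATA3 at 99.0 CPM, MESP1 at 20.3 CPM and TBXT at 14.2 CPM exceeded EOMES at 7.60 CPM and MIXL1 at 6.33 CPM. MESP1 was found there in 10 of 93 thinned cells (10.8%; 5.28 to 18.9) and MIXL1 in 6.

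Clusters 3 and 12 also led for EOMES, MIXL1 and TBXT in the library labelled GATA3 KO, at lower levels. TBX6, MESP1 and MESP2 had their largest parts in other clusters. Cluster 0 held 19.7% of TBX6, 27.6% of MESP1 and 14.7% of MESP2 UMIs, against 0%, 0% and 5.26% in cluster 3. These parts also depend on cluster size. Cluster 0 was the largest, with 667 of 4450 kept cells, against 178 in cluster 3. It had TBX6 at 0.933 CPM (0.604 to 1.38), MESP1 at 0.597 (0.341 to 0.970) and MESP2 at 0.522 (0.286 to 0.877). The whole library had 0.725, 0.331 and 0.542 CPM, so TBX6 and MESP2 were not detectably higher in cluster 0. MESP2 in cluster 3 was at 0.633 CPM (0.205 to 1.48). Of all member UMIs of this library cluster 3 (178 cells) held 36.4% and cluster 12 (84 cells) 20.3%. Cluster 3 had EOMES at 46.8 CPM, MIXL1 at 47.7 CPM and TBXT at 11.9 CPM. Within cluster 3, EOMES was found in 32.8% (25.9 to 40.2) of 177 thinned cells against 65.3% (60.6 to 69.8) of 435 labelled WT, and MIXL1 in 18.1% (12.7 to 24.6) against 74.0% (69.6 to 78.1). MESP1 gave 0 UMIs in cluster 3 of this library, against 1245 labelled WT. It was found in 0 of its 177 thinned cells, which allows up to 1.69%, against 18.2% (14.7 to 22.1) of those labelled WT. SOX2 stood at 194 CPM in cluster 3 labelled GATA3 KO and 43.1 CPM labelled WT, so the cells joined in this cluster differ between the libraries in more than the members.

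**Figure D4:**
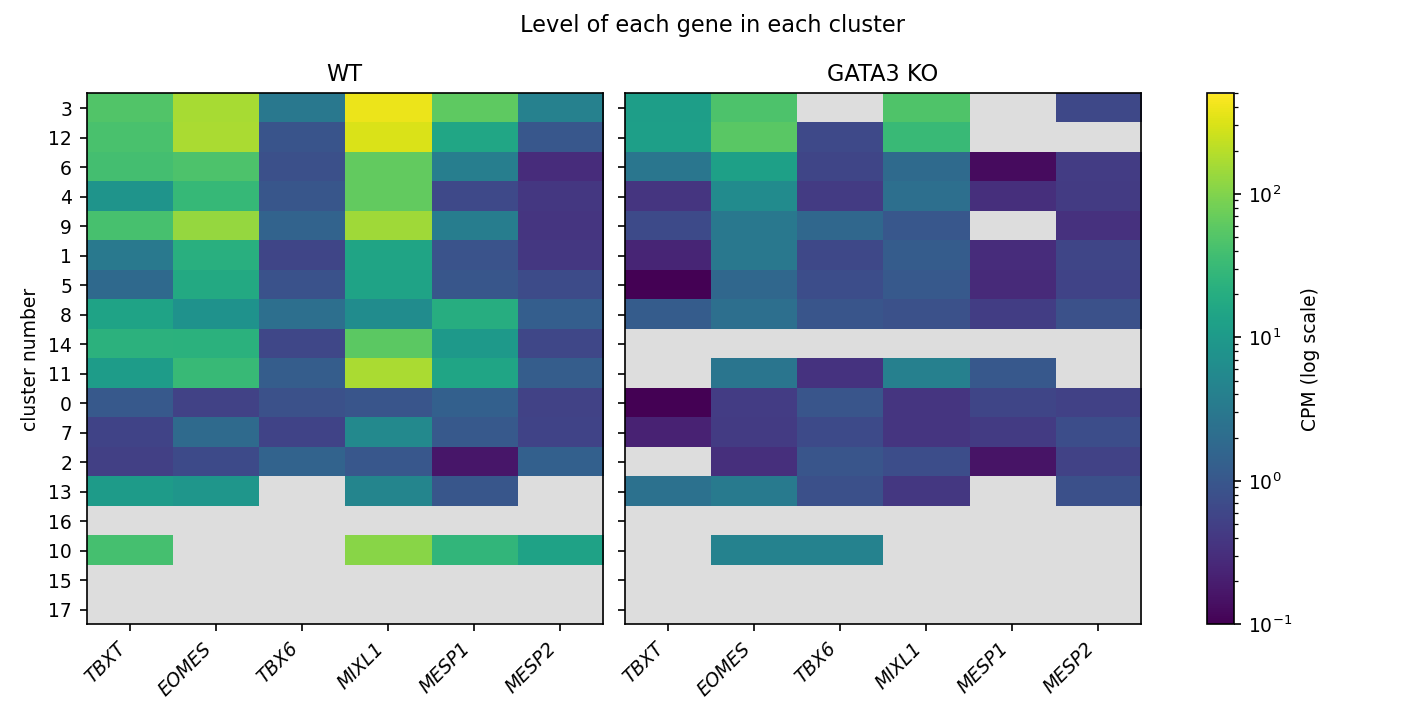
Level of each gene (columns) in each cluster (lines, by number) labelled WT (left) and GATA3 KO (right), in CPM on a log colour scale. Grey marks 0 UMIs or fewer than 50 cells, and clusters are sorted by their part of the member UMIs labelled WT. Clusters 3 and 12 are brightest for MIXL1, EOMES and TBXT in both libraries, and the MESP1 column is grey for both of them labelled GATA3 KO.

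Members were also found in cells with GATA3 UMIs. Among cells labelled WT, MIXL1 was found in 31.7% (25.1 to 38.9) of 186 thinned cells with a GATA3 UMI and 32.5% (30.5 to 34.6) of 1987 without, and TBXT in 24.7% (18.7 to 31.6) and 15.8% (14.2 to 17.4). Among cells labelled GATA3 KO, EOMES was found in 10.1% (6.92 to 14.1) of 297 cells with a GATA3 UMI and 4.06% (3.45 to 4.75) of 3741 without. MIXL1 was found there in 2.36% (0.953 to 4.8) and 2.14%, and TBXT in 1.35% (0.368 to 3.41) and 0.882%.

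Cells left out by the limit of 7500 detected genes were also read. In the 1012 such cells labelled WT MIXL1 was at 114.6 CPM and MESP1 at 9.93 CPM, below the 135.8 and 16.2 CPM of kept cells, and TBXT at 28.3 CPM was above its 22.6. In the 1265 labelled GATA3 KO MIXL1 was at 7.68 CPM (7.16 to 8.23), above the 4.0 CPM of kept cells, while MESP1 was at 0.270 CPM.

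The genes most like each member over the 2173 thinned cells labelled WT were found by Pearson correlation of log-normalised counts over 13097 genes. The cells share 1 library, and sparse counts hold r low. MIXL1 was closest to EOMES (r = 0.62), then to CER1 (0.56), SERPINE2 (0.50), FGF17 (0.48) and FGF4 (0.46). For EOMES the list was MIXL1, SERPINE2, FGF4, CER1 and FGF17, and for TBXT it was MIXL1 (0.39), SERPINE2, EOMES, GAL and SHISAL2B. MESP1 was closest to DKK1 (0.56), CER1 (0.52), GATA6 (0.51), APLNR (0.51) and MIXL1 (0.43). MESP2 was closest to MESP1 (0.29), APLNR, GATA6, CYP26A1 and BMP2. The highest r of TBX6 was 0.14, which in counts this sparse is no finding.

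For cells labelled GATA3 KO, only EOMES and MIXL1 were found in at least 1% of the 4038 thinned cells. Among the 5 genes closest to EOMES were NODAL (0.39), MIXL1 (0.35), FGF8 (0.27) and IER3. Among the 5 closest to MIXL1 were EOMES, FGF8 (0.33), NODAL (0.30) and FGF4. Genes found in fewer than 1% of these cells were not compared, so a gene of the WT lists can be missing here by its level alone.

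The rare positive cells labelled GATA3 KO, 85 cells with at least 2 member UMIs, were then compared with the 3727 cells that had none. They held 4025855 and 159789525 UMIs before thinning, with medians of 49484 and 44695 UMIs and 10.9% and 11.1% mitochondrial counts per cell. The same was done for 702 and 1146 cells labelled WT. The members define these groups and are not counted below. With a minimum of 20 CPM in one of the groups, 5420 genes could be compared, of which 79 (1.46%) were at least 2-fold higher in positive cells labelled GATA3 KO and 58 (1.07%) at least 2-fold lower.

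Genes of chromosome 20q11 were read as a mark of the line, since HM13 differed between the libraries. HM13 was at 123.2 CPM in positive and 115.4 CPM in negative cells labelled GATA3 KO, against 42.01 and 41.8 CPM labelled WT. Summed over 9 genes of that segment, with the BMP target ID1 left out, positive and negative cells stood at 405.9 CPM (386.4 to 426.0) and 407.3 CPM labelled GATA3 KO, and at 229.6 and 221.6 CPM labelled WT. With ID1 the list of 10 had 3 genes at least 2-fold higher in the library labelled GATA3 KO and none at least 2-fold apart between positive and negative cells of either library. None of the 85 cells had a barcode shared with the other library, and none was among the cells with the top doublet scores.

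Of the 85 cells, 39 lay in cluster 3, 22 in cluster 12 and 11 in cluster 6, and none in clusters 0 and 2. Of the 702 positive cells labelled WT, 334, 137 and 61 lay in clusters 3, 12 and 6. The members most often behind a positive cell were EOMES and MIXL1. EOMES stood at 112.5 CPM and MIXL1 at 123.7 CPM in the positive cells labelled GATA3 KO, against 172.5 and 383.7 CPM in those labelled WT. MESP1 gave 1 UMI in all 85 cells and TBX6 gave 2, so neither was detectably higher there than in negative cells, whereas MESP1 stood at 45.8 CPM in positive cells labelled WT.

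Ligands of the streak were among the genes with the highest ratios in the positive cells labelled GATA3 KO. In a list of 12 NODAL, WNT and FGF ligands, 6 reached 5 CPM in either group of cells and 5 of these were at least 2-fold higher in positive cells, with none at least 2-fold lower. At this minimum 1.66% of all genes were at least 2-fold higher and 2.36% at least 2-fold lower. A gene that reaches 5 CPM in positive cells only cannot be called lower. Likewise, a gene that reaches it in negative cells only cannot be called higher. This limit holds for the counts of all lists below, and here for WNT3, FGF8 and FGF4, which reached the minimum in positive cells only. NODAL, the TGF-beta family signal that forms the streak, was at 188.0 CPM (174.9 to 201.9) in positive and 11.3 CPM in negative cells. WNT3, the WNT ligand of the streak, was at 34.5 against 3.88 CPM, FGF8 at 36.8 against 0.914 CPM and FGF4 at 16.4 against 1.05 CPM. The fifth was GDF3, a NODAL-related ligand, at 37.0 against 10.8 CPM. BMP4 was at 42.7 against 63.8 CPM. For cells labelled WT, 10 ligands reached the minimum and 7 were at least 2-fold higher (2.13% of all genes), with NODAL at 169.4 against 57.1 CPM.

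Of 12 inhibitors and feedback genes, 8 reached the minimum and 4 were at least 2-fold higher in positive cells labelled GATA3 KO. These 4 reached it in positive cells only. CER1, a secreted inhibitor of NODAL, WNT and BMP, was at 26.1 CPM (21.3 to 31.6) against 0.307 CPM, the highest ratio of all genes of at least 20 CPM other than the members, at a log2 of 6.41. SP5, a direct target of WNT signalling, was at 50.4 against 2.47 CPM. LEFTY1 and LEFTY2, the feedback inhibitors of NODAL, were at 34.3 against 4.01 CPM and 21.9 against 1.49 CPM. FRZB, a secreted WNT antagonist, was the gene at least 2-fold lower, at 0.994 against 6.06 CPM. DKK1, another WNT antagonist, was at 1.99 against 1.06 CPM labelled GATA3 KO and at 35.4 against 0.477 CPM labelled WT.

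Of 20 streak and nascent mesoderm genes, 6 reached the minimum labelled GATA3 KO and 3 were at least 2-fold higher, namely SP5, EVX1 (5.71 against 0.569 CPM), a posterior streak homeobox gene, and KDR (84.2 against 39.7 CPM), the VEGF receptor of early mesoderm. SP5 and EVX1 reached the minimum in positive cells only. HAND1 was lower, at 5.46 against 12.4 CPM. GATA6 was at 0.994 CPM in positive cells labelled GATA3 KO and 22.7 CPM in those labelled WT, and APLNR, the apelin receptor of nascent mesoderm, at 0.745 and 6.48 CPM. GATA4, a relative of GATA6, was at 3.48 and 4.93 CPM in the positive cells of the 2 libraries, against 0.119 CPM in negative cells labelled GATA3 KO. The posterior homeobox genes CDX1 and CDX2 were at 2.73 and 4.72 CPM in positive cells labelled GATA3 KO (0.232 and 2.05 in negative cells) and at 3.80 and 1.89 CPM in those labelled WT. Among cells labelled WT, 10 genes of the list reached the minimum and 8 were at least 2-fold higher, with 1 at least 2-fold lower (1.98% of all genes). Of 9 segmentation genes, which act with TBX6 and MESP2 in presomitic mesoderm, 3 reached the minimum labelled GATA3 KO and 2 were lower, DLL3 (1.99 against 5.85 CPM) and LFNG (2.48 against 7.64 CPM). None was at least 2-fold higher in either library.

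Of 11 endoderm and organizer genes, CER1 and GSC reached the minimum labelled GATA3 KO and both were at least 2-fold higher. Both reached it in positive cells only, so neither could have been called lower. GSC, the goosecoid homeobox factor of the organizer, was at 9.94 CPM (40 UMIs) against 0.131 CPM. SOX17, a factor of endoderm and germ cells, gave 18 UMIs or 4.47 CPM against 0.0375 CPM. For cells labelled WT, 4 of these genes reached the minimum, again in positive cells only, and all 4 were at least 2-fold higher. Of 6 germ cell genes 2 reached the minimum labelled GATA3 KO and neither was 2-fold apart. Of 12 amnion and trophectoderm genes 7 reached it, and 4 were at least 2-fold lower in positive cells, for example KRT7 (0.248 against 9.01 CPM) and WNT6 (2.24 against 7.69 CPM). TFAP2A was at 46.0 against 36.3 CPM. Of 14 other T-box genes TBX3 and MGA reached the minimum labelled GATA3 KO, and neither was 2-fold apart. TBX22 gave 18 UMIs, 4.47 against 0.695 CPM.

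Pluripotency and ectoderm genes split. Of 10 pluripotency genes, NANOG was at least 2-fold higher in positive cells labelled GATA3 KO, at 123.5 against 52.2 CPM and a log2 ratio of 1.24 (1.11 to 1.37), and 3 were at least 2-fold lower. SOX2 was at 125.4 against 401.2 CPM, a log2 ratio of -1.68 (-1.81 to -1.55), PRDM14 at 1.74 against 9.64 CPM and DNMT3B at 118.5 against 264.2 CPM. Among cells labelled WT, SOX2 was at 42.4 against 230.3 CPM, and NANOG at 78.6 against 70.0 CPM. Both early ectoderm genes that reached the minimum, of 9, were lower labelled GATA3 KO, IRX2 at 22.9 against 90.6 CPM and OTX2 at 9.69 against 30.2 CPM. Of all genes of at least 20 CPM the lowest ratios were those of IDO1, SFRP1, UTF1, PRICKLE1, LINGO1, POSTN, FEZ1, IRX2, TTYH1 and HAPLN3. Among the highest after CER1 were FGF8, SP5, NODAL, LEFTY2, CYP1B1, PCDH10, WNT3 and LEFTY1.

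Positive cells labelled WT held more member UMIs each than those labelled GATA3 KO, so these genes were read again in bins of equal member UMIs (chosen after the data had been seen). In cells with 2 to 3 member UMIs NODAL was at 136.5 CPM (266 cells labelled WT) and 157.1 CPM (58 cells labelled GATA3 KO), and in those with 4 to 7 at 179.9 CPM (220 cells) and 248.3 CPM (23 cells). CER1 was at 21.4 and 6.28 CPM at 2 to 3, at 61.5 and 36.8 CPM at 4 to 7, and at 529.3 and 228.9 CPM at 8 or more, where 4 cells were labelled GATA3 KO. GSC was at 20.6 and 23.3 CPM at 4 to 7. LEFTY1 went the other way in the 2 libraries, from 19.5 CPM in negative cells to 15.2, 9.21 and 5.69 CPM labelled WT, and from 4.01 to 21.1, 60.96 and 63.3 CPM labelled GATA3 KO.

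FGF17 gave 0 UMIs in the 58 cells labelled GATA3 KO with 2 to 3 member UMIs and 7.88 CPM in the 266 labelled WT, and 6.28 against 18.6 CPM at 4 to 7. GATA6 was at 7.63 CPM labelled WT and 1.79 CPM (2 UMIs) labelled GATA3 KO at 4 to 7 member UMIs, and DKK1 at 6.32 and 3.59 CPM (4 UMIs). SOX2 at 2 to 3 was at 63.3 CPM labelled WT and 143.1 CPM labelled GATA3 KO, and NANOG at 93.2 and 121.3 CPM. NANOG labelled WT was at 56.2 CPM at 8 or more, against 70.0 CPM in negative cells.

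**Figure D5:**
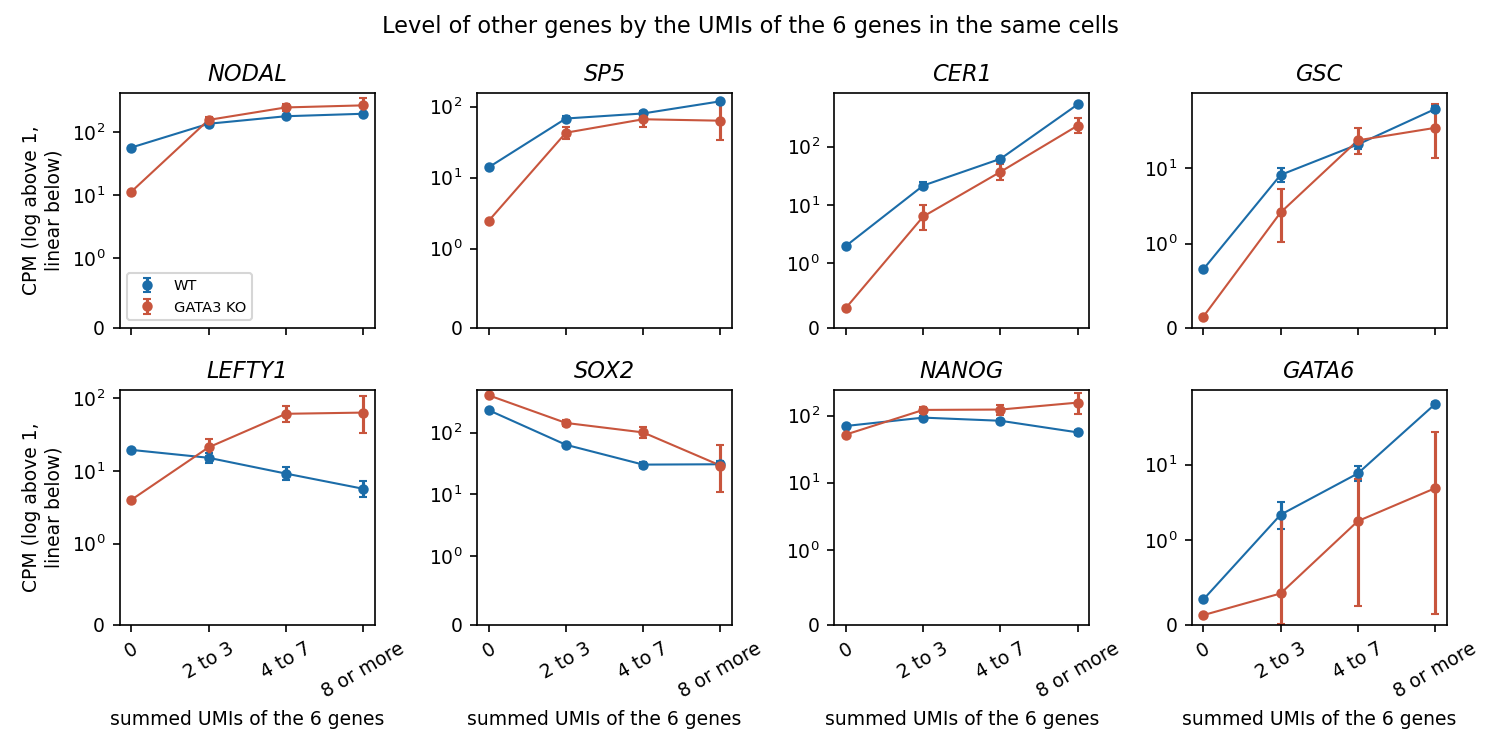
Level of 8 genes (CPM, log above 1 and linear below, each panel with its own axis) in thinned cells grouped by the summed UMIs of the 6 members (horizontal axis), labelled WT (blue) and GATA3 KO (red), with exact Poisson 95% intervals on the groups above 0. NODAL, SP5, CER1 and GSC are higher in all groups with member UMIs than in the group with 0 in both libraries, LEFTY1 is so in GATA3 KO and not in WT, and GATA6 reaches 62.6 CPM labelled WT against 4.87 CPM (1 UMI) labelled GATA3 KO.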

How the data were processed

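The authors made 10x Genomics 3′ v3 libraries, aligned reads with Cell Ranger 3.0.2 to GRCh38 and deposited raw counts of UMIs per gene and cell. No limit on genes or mitochondrial share had been applied to the deposited counts. Limits of 7500 genes and 25% mitochondrial counts follow the methods of the study. Summed UMIs of each library were scaled to its total (CPM), with no pseudocount in ratios, a floor of 3 counts for zeros, exact Poisson and binomial (Clopper-Pearson) intervals at 95%, and no division by transcript length. Reads of near-identical or overlapping genes can be lost or shared. Cells were thinned to 10000 UMIs (seed 1), leaving out 346 and 412 shallower cells. The 8 shared barcodes, and the cells of the top doublet scores (0.8% per 1000 cells, 54 and 170 of those kept), were removed as alternatives, since Scrublet (scanpy 1.11.5) called too few doublets.

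Clusters came from Seurat 5.3.0 (R 4.3.3) after log-normalisation, 2000 variable genes per library without the members and listed genes, CCA integration over 30 dimensions and resolution 1.2 (seed 42). TMM scaling used edgeR 4.0.16. Code was tested on simulated data. Gene coordinates are those of GENCODE for GRCh38. Named genes were the 6 members, GATA3, the listed genes, the 10 highest and 10 lowest ratios of positive over negative GATA3 KO cells (at least 20 CPM, mitochondrial genes left out) and the 5 best correlated genes per member found in at least 1% of thinned cells. Some genes that meet these rules are not reported here. The members and gene lists were chosen with earlier results of these data known.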

Additional observations from a re-analysis of the deposited data

Results flagged for a closer look

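Among listed genes that reached 5 CPM in positive or negative cells of both libraries, 4 had positive cells above negative cells in one library and below them in the other, with both counting intervals off 0. The log2 ratio of LEFTY1 was -0.92 labelled WT and 3.10 labelled GATA3 KO, and that of LEFTY2 was -0.32 and 3.88. POU5F1 stood at -0.066 and 0.12, and L1TD1 at -0.16 and 0.13. Below that minimum labelled GATA3 KO, BMP2 stood at 2.37 (2.10 to 2.64) labelled WT and -1.42 (-3.05 to -0.19; 5 UMIs in positive cells) labelled GATA3 KO. HHEX, which was below it in both, stood at 0.58 (0.14 to 1.02) and -1.63 (-3.92 to -0.07; 3 UMIs). With 1 library per group the difference was not tested for any of these genes. At 2 to 3 member UMIs in both libraries, LEFTY1 was at -0.36 and 2.40, LEFTY2 at 0.03 (-0.26 to 0.31) and 3.24, POU5F1 at 0.04 and 0.14, and L1TD1 at -0.05 and 0.12. The opposite directions thus remained for LEFTY1 and L1TD1 in that bin and not for LEFTY2 and POU5F1.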

How the results depend on the processing

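There were 108 alternatives over 17 values. Of these, 74 lay within the counting interval or within 1.5 times the count, 34 moved beyond it and 0 changed sign. A pseudocount of 1 CPM moved the median log2 ratio of the members to -3.29 and the number of genes at least 2-fold lower from 574 to 307, with 4 members lower in place of 5. That number was 122 at a minimum of 20 CPM, where 3 members were lower, and 3771 with no minimum. The difference in the share of cells with any member was -43.6 points at 20000 UMIs, -31.3 at 5000, -41.8 without thinning and -26.2 with at least 2 UMIs, where the co-detection ratio was 3.70. The share of GATA3 KO cells with at least 2 member UMIs was 4.26% at 20000 UMIs, 1.01% at 5000 and 6.58% without thinning. SOX2 in positive over negative cells was -1.28 over all deposited cells, -1.38 at 20000 UMIs, -1.47 at 5000, -0.67 from 1 member UMI, -2.04 from 3 and -1.49 at 2 to 3, and NANOG was 0.84 from 1. Genes at least 2-fold higher numbered 27 from 1 member UMI and 164 at a minimum of 5 CPM. The leading cluster held 31.6% of WT member UMIs when the libraries were merged without integration and 52.1% with the listed genes left in. The cause was not tested. TBX6 and MESP2 rest on few UMIs and limit what their cells show. No paired analysis was possible because there is 1 library per group.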
